A study of Mus musculus with 15 samples.

Results

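Wnt signalling was followed in cells sorted from embryonic and young mouse pancreas through 53 listed genes for ligands, receptors, inhibitors and effectors. A gene was taken where an array probe set named it alone, which held for 52 of the 53 genes, out of 19938 genes on the array. Tcf7, a TCF/LEF transcription factor, had no such probe set. Where a gene had several, the one brightest on average over all 15 arrays was used, and of the 52 genes only Wnt2 was too dim to be tested, with values from 6.05 to 6.63. Every value below is log2(intensity + 16) of 1 array and every change a difference of such values, which understates the change of dim genes.

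Wnt ligands are secreted lipid-modified proteins that are made ready for release by the acyltransferase PORCN. In the canonical arm they bind a Frizzled receptor together with LRP5 or LRP6, which spares beta-catenin from a destruction complex built on AXIN and APC and lets it act with TCF/LEF factors on target genes. In the non-canonical arms Frizzled and ROR receptors act through planar polarity proteins such as VANGL. In the pancreas the pathway is known for roles in growth of the early epithelium and of the acinar tissue.

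The 5 groups had 3 arrays each, all from pancreas on a CD1 background. Sox9-EGFP mice gave GFP+ cells at embryonic stages e10.5 and e15.5 and at postnatal day 23 (p23), and GFP- cells at p23. Ngn3-EGFP embryos gave GFP+ cells at e15.5. Sox9 marks multipotent progenitors early and duct cells later, and Ngn3 (gene symbol Neurog3) marks endocrine progenitors. GFP+ means cells of high GFP signal by flow sorting. The reporters came through fathers mated with wild-type CD1 mothers. Several animals were pooled for each sort, and the labels do not say whether arrays of a group came from separate pools, so the p-values measure the spread between such arrays, which may be technical. The construct behind each reporter is not described in the sources used here.

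Array medians lay between 165.5 and 211.7 intensity units. Arrays of a group correlated at 0.933 or more, lowest in Ngn3-GFP+ cells, and their number limits the precision of every value. Sox9 averaged 11.97, 12.12 and 11.89 in the Sox9-GFP+ groups from e10.5 to p23, 10.82 in Ngn3-GFP+ cells and 9.52 in GFP- cells. Neurog3 averaged 11.87 in Sox9-GFP+ and 11.83 in Ngn3-GFP+ cells at e15.5, so it did not separate those 2 sorts (limma adjusted p = 0.911). Of 11 endocrine markers, 7 were higher and 0 lower in Ngn3-GFP+ than in Sox9-GFP+ cells at e15.5. Embryonic globin Hbb-y was above 9 in Sox9-GFP+ replicates 1 and 2 at e10.5 and replicate 1 at e15.5, and the leukocyte gene Ptprc was above 9 in Sox9-GFP+ replicates 2 and 3 at p23.

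All 15 arrays entered 1 limma fit, and calls were made at a Benjamini-Hochberg adjusted p at or below 0.05 over the 16883 genes tested. The comparisons share arrays: the Sox9-GFP+ groups of e15.5 and of p23 each enter 3 of them. Between e10.5 and e15.5 in Sox9-GFP+ cells, 16 of 51 tested Wnt genes (31.4%) were called, 3 higher and 13 lower, beside 28.2% of all genes (12.2% higher and 16% lower). The split was 4 higher and 7 lower after quantile normalization, and 5 and 4 after median centring. Of all genes, 10.1% were then higher and 6.02% lower, and 16.4% and 5.85%.

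Between e15.5 and p23 in Sox9-GFP+ cells, 27 of the 51 (52.9%) were called, 18 higher and 9 lower, beside 57.5% of all genes (30.7% higher and 26.8% lower). The split became 12 and 11 after quantile normalization and 12 and 12 after centring. The shares of all genes became 22.8% higher and 23.3% lower, and 21.1% and 32.5%. Over the whole span from e10.5 to p23, 21 genes (41.2%) were called, 9 higher and 12 lower, beside 41.0% of all genes (17.7% higher and 23.3% lower). That split became 13 and 11, or 5 and 11, beside 20.8% higher and 21.9% lower, or 18.4% and 21.0%, of all genes. In these Sox9-GFP+ comparisons the share of Wnt genes called was near that of all genes.

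Markers of other cell types moved over the same ages. From e15.5 to p23 in Sox9-GFP+ cells, all 11 endocrine markers were lower (median -3.89), with a summed intensity of 33180 to 44470 at e15.5 and 2890 to 5973 at p23. Of 15 markers each, 14 endothelial markers were higher and 1 lower, and 11 leukocyte markers were higher and 0 lower. The endothelial median was 0.51, at low summed intensities of 1691 to 1767 at e15.5 and 2186 to 2665 at p23. The leukocyte median was 0.88, with sums of 1848 to 1967 and 3009 to 5968. The care for dim genes described below applies to these markers too. Of 10 ductal markers 5 were higher and 1 lower, and 10 of 11 cell cycle genes were lower. At e15.5 against e10.5, 8 of 8 acinar, 4 of 10 ductal and 4 of 11 endocrine markers were higher and 0 lower. Of 15 endothelial markers 1 was higher and 4 were lower at that step. Of 21 mesenchyme markers, 6 were higher and 2 lower at that step, and 6 higher and 1 lower from e15.5 to p23. Their sums were 7061 to 7398 at e10.5, 8773 to 10830 at e15.5 and 9909 to 10390 at p23. The part of these shifts in the Wnt gene differences with age was not tested.

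Between the 2 sorts at e15.5, 18 Wnt genes (35.3%) were called, 11 higher and 7 lower in Ngn3-GFP+ cells, beside 41.7% of all genes (23.3% higher and 18.4% lower). The split turned to 2 higher and 6 lower after quantile normalization and to 1 and 16 after centring. All genes turned as well, to 10.2% higher and 13.9% lower, and to 10.2% and 26.0%. At p23, 28 Wnt genes (54.9%) were called between Sox9-GFP+ and GFP- cells, 27 higher and 1 lower in Sox9-GFP+ cells, beside 36.0% of all genes (21.5% higher and 14.5% lower). Here the split stayed at 23 and 4, or 20 and 4, beside 20.7% higher and 16.8% lower, or 17.2% and 16.6%, of all genes. The median difference of the 51 genes between the p23 sorts was 0.40 and that of all genes tested 0.07.

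**Figure D1:**
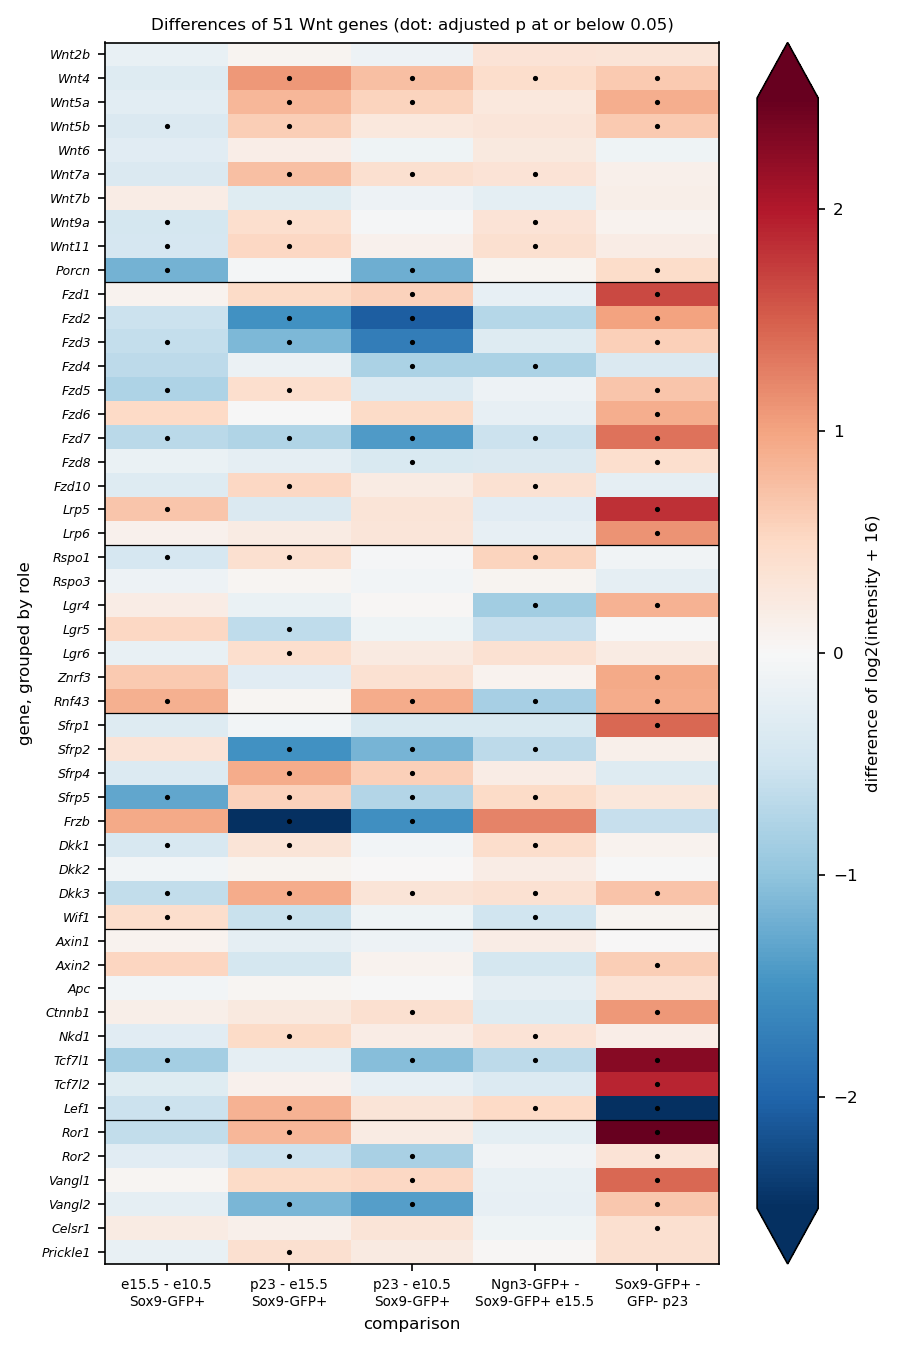
Differences of log2(intensity + 16) for the 51 tested Wnt genes (rows, grouped by role) in 5 comparisons (columns); red is higher in the first-named group, blue lower, colours end at 2.5 in either direction, and a dot marks an adjusted p at or below 0.05. The last column, Sox9-GFP+ minus GFP- at p23, holds 27 called rises and 1 called fall, Lef1.

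Dim genes need care in these comparisons. The 25th percentile of intensity was 67.4 to 73.8 in the Sox9-GFP+ arrays at e15.5 and 74.8 to 97.6 in the other arrays. Of the 19 tested Wnt genes whose mean lay at or below the table's median of 7.67, 12 were called higher and 3 lower at p23 than at e15.5, and 8 higher and 1 lower in Ngn3-GFP+ cells. After quantile normalization these counts were 7 and 4, and 0 and 3. After median centring they were 9 and 3, and 1 and 3. Without either step, 30.7% of all genes tested, dim or not, were called higher and 26.8% lower at p23 than at e15.5. In Ngn3-GFP+ cells these shares were 23.3% and 18.4%. Dim genes of the whole array were not counted apart, so whether the Wnt genes differ from them was not tested. A call is described below as kept where it held in each alternative that tested the gene (other offsets, filters and normalizations, single arrays left out and the like).

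Among the Wnt ligands, Wnt4, which acts in organ patterning, had the largest rise from e15.5 to p23. The Sox9-GFP+ arrays read 8.58, 8.76 and 8.95 (e10.5) and 8.43 in each case (e15.5). The p23 Sox9-GFP+ arrays read 9.51, 9.56 and 9.48, above every other array on the probe set used. Ngn3-GFP+ arrays read 8.96, 8.63 and 9.01, and GFP- arrays 8.95, 8.82 and 8.85. The rise from e15.5 to p23 was 1.08 ± 0.12 (SE; 2.12-fold, limma adjusted p = 7.78e-06), and Wnt4 was 0.65 ± 0.12 higher in Sox9-GFP+ than in GFP- cells at p23 (adjusted p = 0.000616). Both calls were kept. Another, dimmer Wnt4 probe set rose less. It read 7.03, 7.33 and 7.23 at e15.5 and 7.64, 7.62 and 7.86 in Sox9-GFP+ cells at p23. On that probe set Ngn3-GFP+ replicate 1, at 7.69, lay within the p23 range, and GFP- arrays read 7.12, 7.15 and 7.04.

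Wnt5a and Wnt5b, ligands best known for non-canonical signalling, ran the same way at p23. Wnt5a read 6.89, 7.09 and 7.39 at e15.5, 8.07, 7.70 and 8.06 in Sox9-GFP+ cells at p23, and between 6.98 and 7.13 in GFP- cells. The p23 Sox9-GFP+ arrays stood above both other groups without overlap. Wnt5a rose by 0.82 ± 0.19 from e15.5 (adjusted p = 0.00274) and was 0.91 ± 0.19 higher than in GFP- cells (adjusted p = 0.00163). The same differences for Wnt5b were 0.61 ± 0.12 (adjusted p = 0.00122) and 0.66 ± 0.12 (adjusted p = 0.000726), and all 4 calls were kept.

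Wnt7a and Wnt11 also rose from e15.5 to p23, by 0.76 ± 0.13 and 0.52 ± 0.12, and kept their calls. Both were dim: Wnt7a ranged from 6.29 to 7.30 over all 15 arrays and Wnt11 from 6.86 to 7.62. Wnt9a had a rise of 0.41 ± 0.12 whose call was lost after quantile normalization. From e10.5 to p23 the differences were smaller. They were 0.57 ± 0.19 for Wnt5a (limma adjusted p = 0.0276) and 0.40 ± 0.13 for Wnt7a (adjusted p = 0.0229), each lost in 6 alternatives. Over that span Wnt5b (0.26 ± 0.12, adjusted p = 0.12), Wnt11 (0.11 ± 0.12, adjusted p = 0.494) and Wnt9a (-0.03 ± 0.12, adjusted p = 0.878) were not called. Wnt2b, Wnt6 and Wnt7b were called in no comparison.

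Porcn was high at e10.5 alone. It read 9.27, 9.11 and 8.96 there. Later Sox9-GFP+ arrays read 8.03, 7.81 and 7.98 (e15.5) and 7.88, 7.90 and 7.89 (p23). The Ngn3-GFP+ arrays read 8.05, 8.08 and 7.93 and the GFP- arrays 7.56, 7.22 and 7.52. No array of another group reached the e10.5 values. Porcn fell by 1.17 ± 0.12 to e15.5 (adjusted p = 1.31e-05) and was 1.22 ± 0.12 lower at p23 than at e10.5 (adjusted p = 1.37e-06), both kept, while the step from e15.5 to p23 was -0.05 (adjusted p = 0.723).

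The Frizzled receptors divided into some that declined with age and some that did not. Fzd2, Fzd3 and Fzd7 fell from e10.5 to p23 and kept that call. Fzd2 read 10.37, 9.99 and 9.55 at e10.5, 9.69, 9.29 and 9.28 at e15.5, and 7.30, 8.34 and 8.08 at p23. It read 8.18, 8.73 and 9.20 in Ngn3-GFP+ cells and 6.96, 6.92 and 6.80 in GFP- cells. The p23 Sox9-GFP+ arrays lay below every embryonic Sox9-GFP+ array. The fall from e10.5 was 2.06 ± 0.28 on the log2 scale (4.17-fold, adjusted p = 4.21e-05), most of it after e15.5 (-1.51 ± 0.28, adjusted p = 0.00069). Between the p23 sorts Fzd2 differed by 1.02 ± 0.28 (adjusted p = 0.0115), a call lost without Sox9-GFP+ replicate 2. The call was also lost without the 2 arrays with Ptprc above 9, which left a lone p23 Sox9-GFP+ array. That Fzd2 difference lay between 0.41 and 1.32 over all alternatives.

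Fzd3, a receptor used in axon guidance and planar polarity, gave closely spaced replicates. The e10.5 arrays read 11.37, 11.31 and 11.31, the e15.5 arrays 10.80, 10.73 and 10.69, and the p23 arrays 9.60, 9.48 and 9.75. The 3 ages did not overlap. Ngn3-GFP+ cells read 10.29, 10.69 and 10.28 and GFP- cells 9.22, 9.40 and 8.42. From e10.5 to p23 the difference was -1.72 ± 0.20 (adjusted p = 7.4e-06). The first step, -0.59 ± 0.20 (adjusted p = 0.0402), was lost when any of its 6 arrays was left out, with an adjusted p of up to 0.22 over the alternatives.

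Fzd7, a Frizzled of stem and progenitor cells, was with Dkk3 one of 2 Wnt genes called in all 5 comparisons. It read 11.05, 10.92 and 10.87 at e10.5, 10.31, 10.23 and 10.29 at e15.5, and 9.10, 9.65 and 9.85 at p23. Ngn3-GFP+ arrays read 10.15, 9.40 and 9.66 and GFP- arrays 8.22, 8.18 and 8.12, the lowest of all. The ages did not overlap, and the difference from e10.5 to p23 was -1.41 ± 0.19 (adjusted p = 3.16e-05). At p23 Fzd7 was 1.36 ± 0.19 higher in Sox9-GFP+ than in GFP- cells (2.56-fold, adjusted p = 4.92e-05). Its step from e10.5 to e15.5 (-0.67 ± 0.19) and its lower level in Ngn3-GFP+ cells (-0.54 ± 0.19) were not kept, with adjusted p of up to 0.193 and 0.137 over the alternatives.

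**Figure D2:**
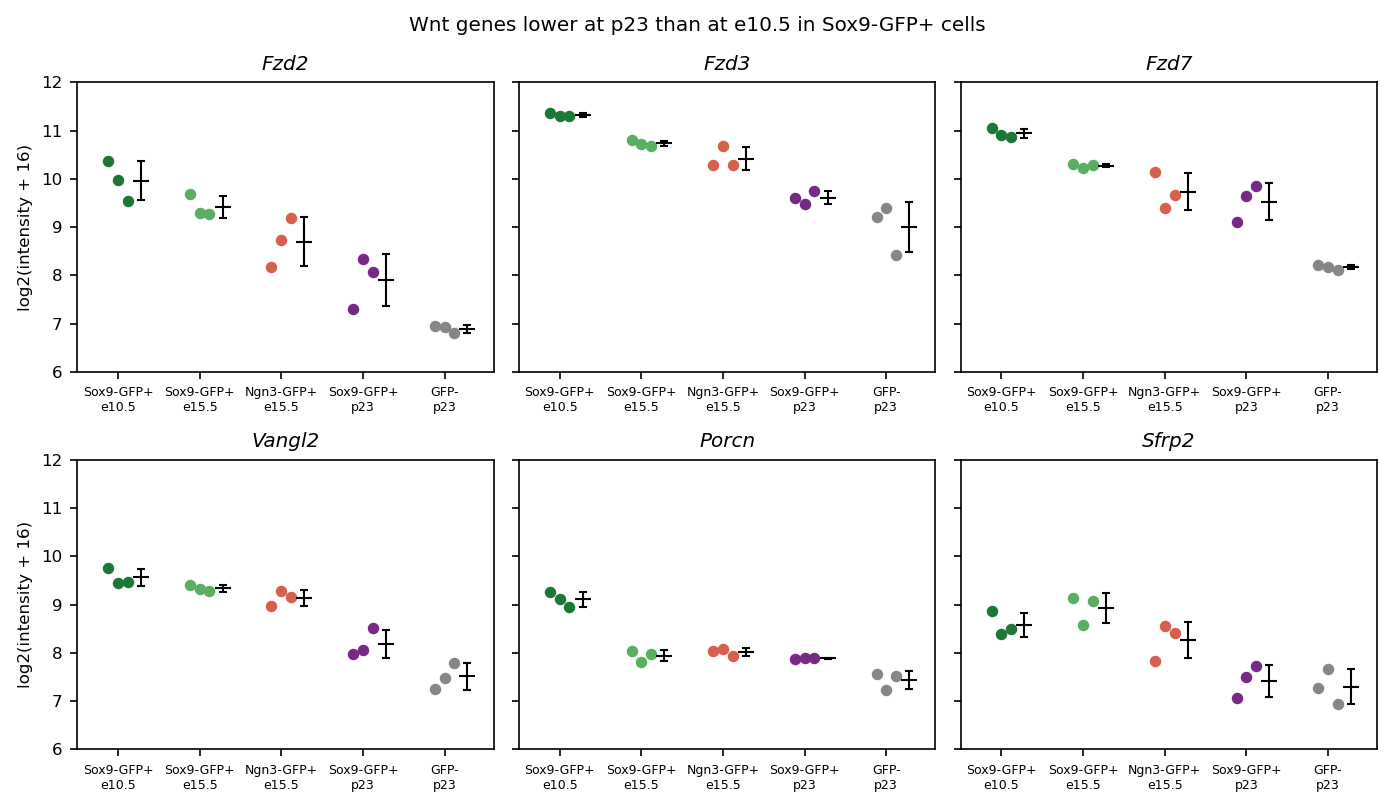
Log2(intensity + 16) of 6 Wnt genes in each of the 15 arrays by sorted group; points are arrays and the bar beside them is the mean with its SD (n = 3). In each panel the p23 Sox9-GFP+ arrays lie below the e10.5 Sox9-GFP+ arrays; Porcn is down by e15.5, and Sfrp2 falls between e15.5 and p23.

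Fzd1 did not decline. Its arrays read 8.61, 8.20 and 7.98 at e10.5, 8.24, 8.46 and 8.36 at e15.5, 7.87, 8.59 and 8.02 in Ngn3-GFP+ cells, 8.64, 8.97 and 8.91 at p23, and 7.24, 6.82 and 7.50 in GFP- cells. The GFP- arrays lay below all others, and Fzd1 was 1.66 ± 0.21 higher in Sox9-GFP+ cells at p23 (3.16-fold, adjusted p = 2.21e-05). Its difference from e10.5 to p23, 0.58 ± 0.21 (adjusted p = 0.0415), was lost in 8 alternatives.

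Of the remaining Frizzled genes, Fzd5 fell by 0.77 ± 0.14 to e15.5 (adjusted p = 0.00176) and was 0.69 ± 0.14 higher in Sox9-GFP+ than in GFP- cells at p23 (adjusted p = 0.00127, kept). Without the 3 arrays with Hbb-y above 9, which left a lone e10.5 array, the first call was lost. Over all alternatives the first difference lay between -0.85 and -0.59. Fzd6 was 0.91 ± 0.19 higher in the p23 Sox9-GFP+ cells (limma adjusted p = 0.00165). That call was lost without the 2 arrays with Ptprc above 9, which left a lone p23 Sox9-GFP+ array. The Fzd6 difference lay between 0.64 and 1.14 over all alternatives. Fzd4, known from blood vessels, averaged 8.93 at e10.5 and 8.14 at p23 in Sox9-GFP+ cells (-0.79 ± 0.26, adjusted p = 0.0237, and up to 0.224 over the alternatives) and 8.50 in GFP- cells. The highest array read 7.89 for Fzd8 and 7.83 for Fzd10.

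The co-receptors Lrp5 and Lrp6 were both higher in Sox9-GFP+ than in GFP- cells at p23. Lrp5 read 9.38, 9.18 and 9.03 at e10.5, 9.96, 9.84 and 9.85 at e15.5, 9.40, 9.61 and 9.56 at p23, and 9.42, 9.77 and 9.60 in Ngn3-GFP+ cells. The GFP- arrays read 7.68, 8.05 and 7.38, below all others. Lrp5 rose by 0.69 ± 0.16 from e10.5 to e15.5 (adjusted p = 0.00779) and was 1.82 ± 0.16 higher in Sox9-GFP+ than in GFP- cells at p23 (3.52-fold, adjusted p = 4.47e-07), both kept. Lrp6 read 10.37, 10.38 and 10.35 at e10.5, 10.39 to 10.52 at e15.5, 10.29, 9.98 and 10.51 in Ngn3-GFP+ cells, 10.74, 10.63 and 10.66 at p23, and 9.65, 9.48 and 9.50 in GFP- cells. It was called only between the p23 sorts, where it was 1.13 ± 0.12 higher in Sox9-GFP+ cells (adjusted p = 3.84e-06, kept).

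The R-spondin module sets how many Frizzled receptors stay at the surface: RNF43 and ZNRF3 remove them, and R-spondins with LGR receptors hold that removal back. Rnf43 read 7.46, 7.60 and 7.57 at e10.5, 8.71, 8.21 and 8.37 at e15.5, and 8.20, 8.72 and 8.52 at p23 in Sox9-GFP+ cells. It read 7.46, 7.25 and 8.08 in Ngn3-GFP+ cells and 7.76, 7.50 and 7.37 in GFP- cells. The later Sox9-GFP+ arrays lay above all arrays of the other groups. Rnf43 rose by 0.88 ± 0.20 from e10.5 to e15.5 (adjusted p = 0.00796), was 0.83 ± 0.20 lower in Ngn3-GFP+ cells on the log2 scale (-0.83, adjusted p = 0.00795) and 0.94 ± 0.20 higher in Sox9-GFP+ than GFP- cells at p23 (adjusted p = 0.00216). The first 2 calls were lost without the Hbb-y arrays, which left a lone e10.5 array for the first (limma adjusted p = 0.0528 for the second). The p23 call was lost without the 2 arrays with Ptprc above 9, which left a lone p23 Sox9-GFP+ array. Over all alternatives these differences were 0.71 to 1.05, -1.08 to -0.66 and 0.66 to 1.08.

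Lgr4, the broadly used R-spondin receptor, was the only Wnt gene whose call between the e15.5 sorts was kept. Sox9-GFP+ arrays at e15.5 read 10.01, 10.08 and 10.06 and Ngn3-GFP+ arrays 9.55, 8.54 and 9.45, a difference of -0.87 ± 0.21 (adjusted p = 0.00784). At p23 the Sox9-GFP+ arrays read 9.98, 9.69 and 9.97 and the GFP- arrays 9.32, 8.90 and 8.83 (0.87 ± 0.21 higher, adjusted p = 0.00492, kept). Neither pair of groups overlapped.

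Lgr5, a stem-cell marker of the gut, stayed between 6.57 and 7.29 in 14 arrays and read 8.17 in Sox9-GFP+ replicate 1 at e15.5, 1 of the arrays with Hbb-y above 9. Its call from e15.5 to p23 (-0.63 ± 0.24, adjusted p = 0.0373) was lost without that array, and its highest adjusted p over the alternatives was 0.203. Znrf3 averaged 8.52 in Sox9-GFP+ and 7.57 in GFP- cells at p23 (0.95 ± 0.34, adjusted p = 0.0409), a call lost in 10 alternatives. Rspo1 ranged from 6.89 to 7.72, Rspo3 from 6.95 to 7.39 and Lgr6 from 6.75 to 7.55. Rspo3 was called in no comparison.

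The secreted inhibitors bind Wnt ligands (SFRPs, FRZB, WIF1) or block LRP5 and LRP6 (DKK1). Frzb moved most and varied most. It read 7.49, 7.15 and 6.66 at e10.5, 7.08, 8.55 and 8.48 at e15.5, and 5.30, 5.57 and 5.80 at p23 in Sox9-GFP+ cells. Ngn3-GFP+ arrays read 10.44, 7.93 and 9.47 and GFP- arrays 5.88, 5.89 and 6.62. The p23 Sox9-GFP+ arrays were below all embryonic ones. The fall from e15.5 to p23 was 2.48 ± 0.51 on the log2 scale (5.58-fold, limma adjusted p = 0.00131, kept). Endocrine marker sums in Sox9-GFP+ cells were 25050 to 29510 at e10.5, 33180 to 44470 at e15.5 and 2890 to 5973 at p23. Those of neural crest and glia markers were 2595 to 2790, 4443 to 4994 and 1382 to 1495. The part of either in the Frzb values was not tested. The higher Frzb mean in Ngn3-GFP+ cells, 9.28 against 8.04, did not pass the test (1.24 ± 0.51, adjusted p = 0.0638), and those groups overlapped.

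Sfrp2 also fell after e15.5. It read 8.87, 8.39 and 8.49 at e10.5, 9.15, 8.57 and 9.08 at e15.5, 7.84, 8.56 and 8.41 in Ngn3-GFP+ cells, 7.07, 7.49 and 7.72 at p23, and 7.28, 7.67 and 6.95 in GFP- cells. Its p23 and embryonic Sox9-GFP+ arrays did not overlap (e15.5 to p23: -1.51 ± 0.24, 2.84-fold, adjusted p = 0.00021, kept). Between the p23 sorts the 2 groups overlapped (0.13 ± 0.24, adjusted p = 0.731).

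Sfrp1 differed between the p23 sorts and not with age. Its arrays read 10.73, 10.66 and 10.35 at e10.5, 10.10, 10.27 and 10.39 at e15.5, 9.55, 9.68 and 10.36 in Ngn3-GFP+ cells, 10.16, 10.03 and 10.38 at p23, and 8.99, 8.87 and 8.40 in GFP- cells. GFP- arrays lay below all others. The p23 difference was 1.44 ± 0.21 (2.71-fold, adjusted p = 6.26e-05, kept), and the 4 other comparisons did not pass the test.

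Sfrp5, a marker of early foregut endoderm, was highest at e10.5. It read 7.64, 7.60 and 7.39 there, 6.26, 6.28 and 6.18 at e15.5, and 6.90, 6.90 and 6.65 at p23 in Sox9-GFP+ cells. No later array reached the e10.5 values. It fell by 1.30 ± 0.11 to e15.5 (2.47-fold, adjusted p = 3.55e-06) and then rose by 0.58 ± 0.11 (adjusted p = 0.000985), both kept, at levels below the table's median of 7.67.

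Dkk3, a divergent DKK family member, read 7.55, 7.74 and 7.78 at e10.5, 7.06, 7.09 and 7.09 at e15.5, 7.52, 7.28 and 7.55 in Ngn3-GFP+ cells, 7.98, 8.11 and 7.93 at p23, and 7.20, 7.28 and 7.42 in GFP- cells. It rose by 0.92 ± 0.11 from e15.5 to p23 (adjusted p = 1.69e-05) and was 0.71 ± 0.11 higher in Sox9-GFP+ than in GFP- cells at p23 (adjusted p = 0.000145), both kept. Sfrp4 rose by 0.94 ± 0.16 from e15.5 to p23 (adjusted p = 0.000428, kept), from a mean of 6.26 to 7.19. Wif1 peaked at e15.5 with a mean of 7.50 and was 0.56 ± 0.14 lower at p23 on the log2 scale (-0.56, limma adjusted p = 0.00462). That call was lost without the 2 arrays with Ptprc above 9, which left a lone p23 Sox9-GFP+ array. The Wif1 difference lay between -0.75 and -0.43 over all alternatives. Dkk2 was called in no comparison. Dkk1 lay between 7.59 and 8.25 and was lowest at e15.5 in Sox9-GFP+ cells. It differed by -0.40 ± 0.11 from e10.5 to e15.5 (limma adjusted p = 0.0188) and 0.33 ± 0.11 from e15.5 to p23 (adjusted p = 0.0202). In Ngn3-GFP+ cells it was 0.44 ± 0.11 higher (adjusted p = 0.00897). None of these Dkk1 calls was kept.

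**Figure D3:**
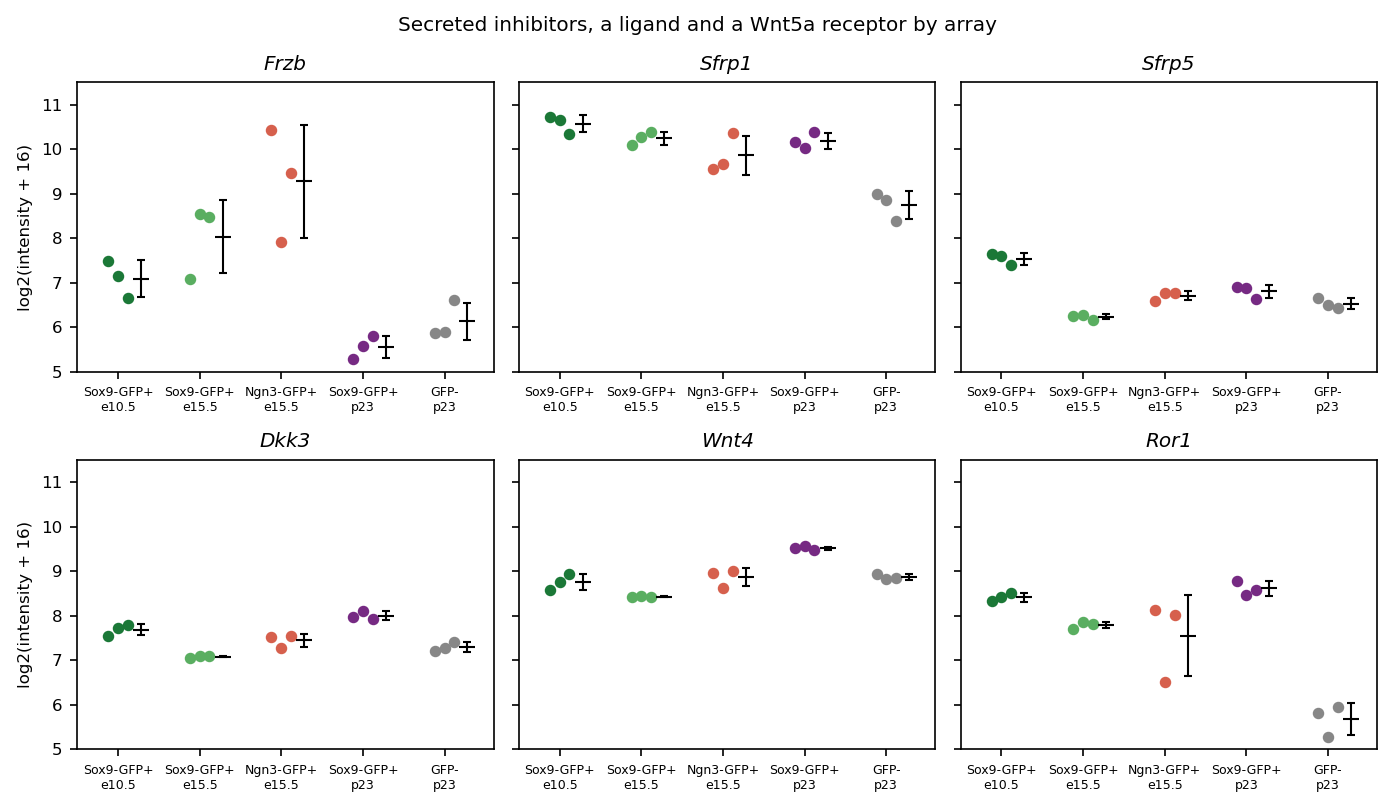
Log2(intensity + 16) of 4 secreted inhibitors, the ligand Wnt4 and the receptor Ror1 in each of the 15 arrays by sorted group; points are arrays and the bar beside them is the mean with its SD (n = 3). Frzb spreads from 7.93 to 10.44 in Ngn3-GFP+ cells and lies below 6 in Sox9-GFP+ cells at p23; Ror1 is lowest in GFP- cells.

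Beta-catenin (Ctnnb1), the transducer of the canonical arm and a part of cell junctions, read 11.67, 11.44 and 11.32 at e10.5, 11.62, 11.60 and 11.65 at e15.5, and 11.77, 11.96 and 11.88 at p23 in Sox9-GFP+ cells. Ngn3-GFP+ arrays read 11.43, 10.95 and 11.52 and GFP- arrays 10.94, 10.79 and 10.64. GFP- arrays were the lowest, and the p23 difference was 1.08 ± 0.15 (2.12-fold, adjusted p = 3.69e-05, kept). From e10.5 to p23 the call (0.40 ± 0.15, adjusted p = 0.0422) was lost in 9 alternatives. In the destruction complex, Apc and Axin1 were called in no comparison. Axin2, which is also a target gene of the pathway, was 0.61 ± 0.19 higher in Sox9-GFP+ than in GFP- cells at p23 (adjusted p = 0.0221), a call lost in 6 alternatives.

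The TCF/LEF factors bind DNA next to beta-catenin. Of the 8 tested genes listed here for the beta-catenin arm, 3 such factors gave the largest contrasts between the p23 sorts. Tcf7l1, mostly a repressor, read 10.21, 9.84 and 9.68 at e10.5, 9.11, 8.97 and 9.13 at e15.5, and 8.75, 8.79 and 9.01 at p23 in Sox9-GFP+ cells. Ngn3-GFP+ arrays read 8.19, 8.23 and 8.81 and GFP- arrays 7.28, 6.16 and 6.32. All e10.5 arrays lay above, and all GFP- arrays below, the rest. Tcf7l1 was 2.27 ± 0.25 higher in Sox9-GFP+ than in GFP- cells at p23 (4.81-fold, adjusted p = 4.89e-06, kept). Its difference from e10.5 to p23 was -1.06 ± 0.25 (limma adjusted p = 0.0033). That call was lost without the arrays with Hbb-y above 9, which left a lone e10.5 array. The difference lay between -1.17 and -0.83 over all alternatives.

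Tcf7l2, the main TCF of many epithelia, read 11.59, 11.57 and 11.62 at e10.5, 11.38, 11.20 and 11.26 at e15.5, 10.93, 11.13 and 10.77 in Ngn3-GFP+ cells, and 11.51, 11.43 and 11.20 at p23. The GFP- arrays read 9.73, 9.36 and 9.37, below all others. It was 1.90 ± 0.13 higher in Sox9-GFP+ cells at p23 (3.72-fold, adjusted p = 3.89e-08, kept) and passed the test in no other comparison.

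Lef1, an activating family member used in lymphocytes among other cells, ran opposite. The GFP- arrays read 12.14, 12.22 and 12.66, and the p23 Sox9-GFP+ arrays 7.82, 8.18 and 7.90. The embryonic arrays read 7.58, 7.66 and 7.69 at e10.5, 7.08, 7.05 and 7.16 at e15.5, and 7.64, 7.65 and 7.51 in Ngn3-GFP+ cells. GFP- cells thus stood far above every other array, by 4.37 ± 0.14 over Sox9-GFP+ cells at p23 (20.7-fold, difference -4.37, adjusted p = 1.7e-11, kept). Lef1 also rose by 0.87 ± 0.14 from e15.5 to p23 in Sox9-GFP+ cells (limma adjusted p = 0.000175, kept), from an e15.5 mean of 7.10, below the table's median of 7.67. From e10.5 to p23 its difference was 0.32 ± 0.14 and was not called (adjusted p = 0.0729).

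Most leukocyte markers were likewise highest in GFP- cells. Of 15 listed, 13 were lower and 0 higher in Sox9-GFP+ than in GFP- cells at p23, and their summed intensity was 66140 to 97180 in GFP- arrays, 3009 to 5968 in Sox9-GFP+ arrays at p23 and 1723 to 2663 in the embryonic arrays. Ptprc, the pan-leukocyte CD45, read 14.28, 14.41 and 14.64 in GFP- cells and 8.12, 10.64 and 10.09 in Sox9-GFP+ cells at p23. The T-cell receptor chain Cd3g read 12.33, 12.49 and 12.72 in GFP- cells and 6.62, 7.84 and 8.30 in Sox9-GFP+ cells at p23. Both p23 sorts thus held leukocyte signal, far more in GFP- cells, and its part in the Lef1 values was not tested. In bulk sorts like these, a change in the share of a cell type and a change of RNA per cell cannot be told apart.

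**Figure D4:**
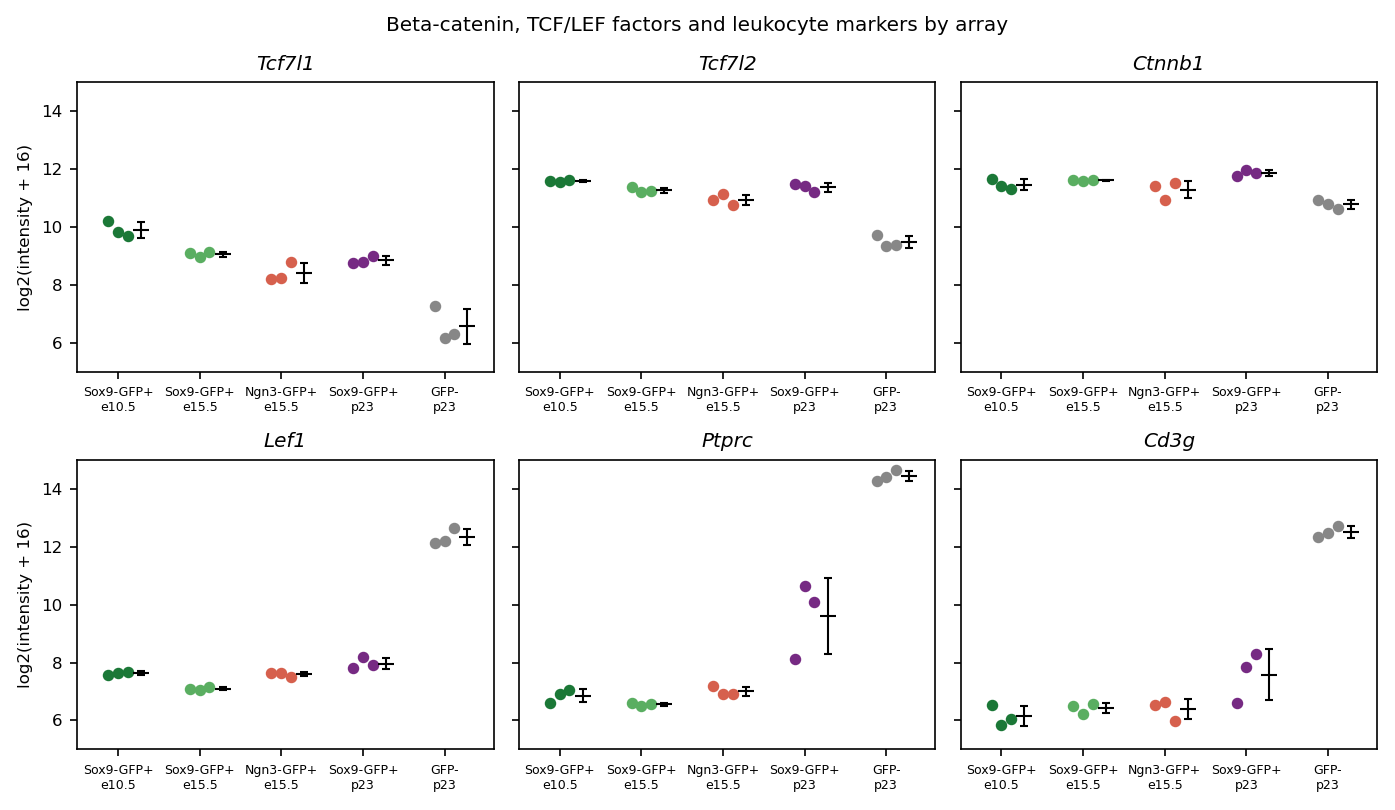
Log2(intensity + 16) of Tcf7l1, Tcf7l2, beta-catenin (Ctnnb1), Lef1 and the leukocyte markers Ptprc and Cd3g in each of the 15 arrays by sorted group; points are arrays and the bar beside them is the mean with its SD (n = 3). GFP- arrays are the lowest for Tcf7l1, Tcf7l2 and Ctnnb1 and the highest for Lef1, Ptprc and Cd3g.

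The start-proximal sequences of these factors and of Fzd7 were read because TCF/LEF factors can act on their own pathway's genes. Each line gives the 250 bases before the first-listed start in RefSeq's table for build GRCm38.p6, 5′ to 3′ on the gene's strand, with capitals marking a match on either strand to CTTTGAA or to CTTTGAT, or else to CTTTGTA or to CTTTGTT.
Fzd7: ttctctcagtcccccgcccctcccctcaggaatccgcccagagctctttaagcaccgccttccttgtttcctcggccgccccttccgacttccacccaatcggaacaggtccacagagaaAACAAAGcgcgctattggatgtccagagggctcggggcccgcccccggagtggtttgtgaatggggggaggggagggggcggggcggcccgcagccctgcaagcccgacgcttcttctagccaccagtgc
Lef1: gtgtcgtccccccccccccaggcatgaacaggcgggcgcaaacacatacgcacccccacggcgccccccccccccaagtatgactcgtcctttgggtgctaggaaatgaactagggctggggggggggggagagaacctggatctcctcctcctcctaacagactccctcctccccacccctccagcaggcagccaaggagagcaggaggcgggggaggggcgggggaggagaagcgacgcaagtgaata
Tcf7l1: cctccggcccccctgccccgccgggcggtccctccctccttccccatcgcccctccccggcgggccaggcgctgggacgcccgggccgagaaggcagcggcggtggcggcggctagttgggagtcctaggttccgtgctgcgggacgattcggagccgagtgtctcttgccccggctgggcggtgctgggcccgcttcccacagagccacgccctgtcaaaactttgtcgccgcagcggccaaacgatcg
Tcf7l2: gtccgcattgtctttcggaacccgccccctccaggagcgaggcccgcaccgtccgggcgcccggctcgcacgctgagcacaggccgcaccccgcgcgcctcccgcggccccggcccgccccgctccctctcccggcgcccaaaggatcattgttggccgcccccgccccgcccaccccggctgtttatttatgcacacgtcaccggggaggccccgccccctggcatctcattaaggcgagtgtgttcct
These windows are chr1:59481897-59482146 (plus strand) for Fzd7, chr3:131110047-131110296 (plus) for Lef1, chr6:72789046-72789295 (minus) for Tcf7l1 and chr19:55741560-55741809 (plus) for Tcf7l2. The Fzd7 window holds AACAAAG at position -130 counted from the start, and the other 3 hold none of these letters. Windows of other listed starts hold TACAAAG at -147 for Lef1 and CTTTGTT at -14 for Tcf7l2. Of the 52 genes, 33 had a window, and 6 of their 43 windows (14.0%) held a match, beside 14.8% of all 32851 windows in the table.

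Of the planar polarity and ROR genes, Ror1, a receptor of Wnt5a, separated the p23 sorts most. It read 8.32, 8.41 and 8.52 at e10.5, 7.71, 7.85 and 7.82 at e15.5, 8.12, 6.52 and 8.03 in Ngn3-GFP+ cells, and 8.79, 8.48 and 8.58 at p23. The GFP- arrays read 5.81, 5.29 and 5.96, below all others. The difference was 2.93 ± 0.31 (7.6-fold, adjusted p = 3.99e-06, kept). The difference from e15.5 to p23 (0.82 ± 0.31, adjusted p = 0.038) was lost in 11 alternatives. Ror2 averaged 8.95 at e10.5 and 8.15 at p23 in Sox9-GFP+ cells, a difference of -0.81 ± 0.12 (adjusted p = 6.76e-05, kept).

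Vangl1 and Vangl2, a pair of closely related polarity proteins, took different courses in Sox9-GFP+ cells. Vangl2 read 9.77, 9.45 and 9.48 at e10.5, 9.42, 9.32 and 9.27 at e15.5, 8.96, 9.28 and 9.16 in Ngn3-GFP+ cells, 7.98, 8.06 and 8.52 at p23, and 7.25, 7.49 and 7.80 in GFP- cells. Its p23 arrays were below every embryonic array (e10.5 to p23: -1.38 ± 0.17, adjusted p = 1.17e-05, kept). Vangl1 read 8.08, 8.05 and 7.85 at e10.5, 8.14, 7.92 and 8.09 at e15.5, 7.88, 7.88 and 7.85 in Ngn3-GFP+ cells, 8.16, 8.37 and 9.03 at p23, and 7.33, 7.19 and 6.75 in GFP- cells.

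Vangl1 was higher in Sox9-GFP+ than in GFP- cells at p23 by 1.43 ± 0.19 (adjusted p = 3.66e-05, kept), and from e10.5 to p23 its difference was 0.53 ± 0.19 (adjusted p = 0.0415), lost in 9 alternatives. The courses of the pair were not tested against each other. For Vangl2 the p23 sorts differed by 0.67 ± 0.17 (limma adjusted p = 0.00522). That call was lost without the 2 arrays with Ptprc above 9, which left a lone p23 Sox9-GFP+ array. The Vangl2 difference lay between 0.47 and 0.82 over all alternatives. Celsr1 was 0.40 ± 0.14 higher in Sox9-GFP+ than in GFP- cells at p23 (adjusted p = 0.0344, and up to 0.364 over the alternatives). Prickle1 differed by 0.40 ± 0.16 from e15.5 to p23 (adjusted p = 0.0434, and up to 0.219 over the alternatives).

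**Figure D5:**
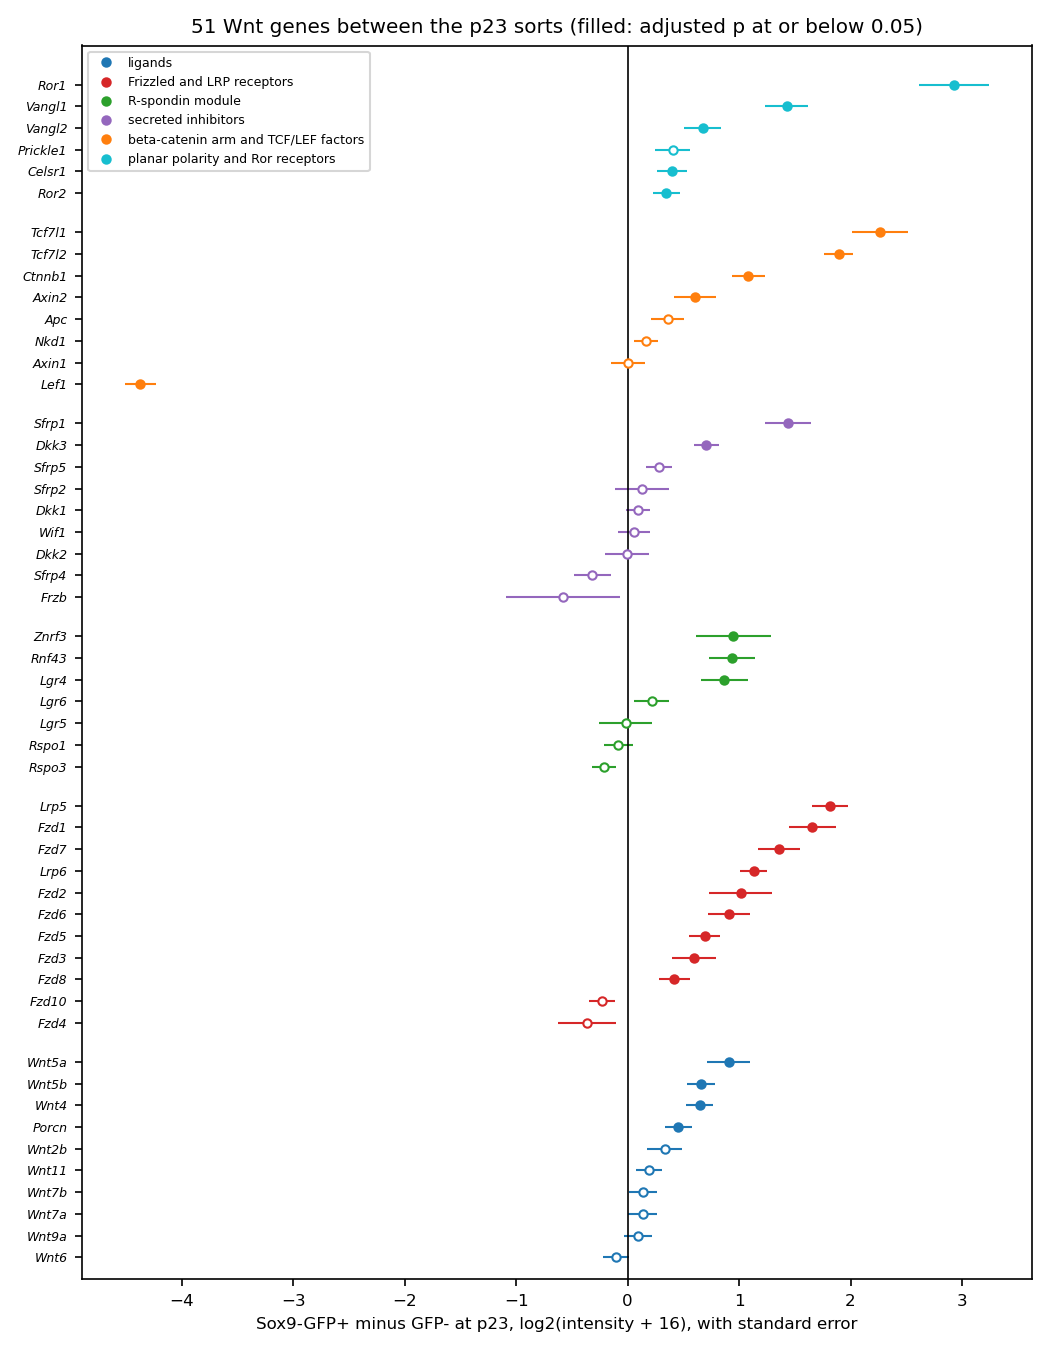
Difference of log2(intensity + 16), Sox9-GFP+ minus GFP- cells at p23, for the 51 tested Wnt genes, with limma's standard error (n = 3 arrays a group); colour gives the role and filled points have an adjusted p at or below 0.05. Of the 11 Frizzled and LRP receptors 9 are filled and to the right of 0, and Lef1 stands alone at -4.37.

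By role, 9 of 11 Frizzled and LRP genes were higher in Sox9-GFP+ than in GFP- cells at p23 and 0 lower, with a median of 0.91, beside 21.5% of all genes called higher, and Fzd1, Fzd5, Fzd7, Lrp5 and Lrp6 kept their calls. The counts were 5 of 6 among planar polarity and ROR genes, 4 higher and 1 lower of 8 in the beta-catenin arm, 3 of 9 Wnt ligands (with Porcn called higher beside them), 3 of 7 in the R-spondin module and 2 of 9 secreted inhibitors. Other markers differed between these sorts too. Of 10 ductal markers 8 were higher and 0 lower in Sox9-GFP+ cells, their summed intensity being 23260 to 27090 against 6382 to 8000. Of 15 endothelial markers 0 were higher and 8 lower, and of 21 mesenchyme markers 1 was higher and 10 lower. Of 8 acinar markers 2 were lower, with summed intensities of 62620 to 71000 in Sox9-GFP+ and 76130 to 81260 in GFP- arrays, and the part of this mixture in the Wnt gene differences was not tested. Without the 2 Sox9-GFP+ arrays with Ptprc above 9, which leaves 1 array, the median difference of the 51 Wnt genes was 0.41, beside 0.40 with all arrays.

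Over the rest of the pathway, 55 other Wnt genes could be tested. Of these, 3 were called higher and 14 lower at e15.5 than at e10.5, 16 and 18 at p23 than at e15.5, 6 and 19 at p23 than at e10.5, 11 and 4 in Ngn3-GFP+ cells, and 17 and 3 in Sox9-GFP+ against GFP- cells at p23. The shares called were 30.9, 61.8, 45.5, 27.3 and 36.4%, beside 28.2, 57.5, 41.0, 41.7 and 36.0% of all genes in the same order; the share was below that of all genes in Ngn3-GFP+ cells and near it otherwise. Sostdc1, an inhibitor that binds LRP co-receptors, rose through the Sox9-GFP+ series from 6.06, 5.78 and 5.24 at e10.5 to 7.49, 7.94 and 8.21 at e15.5 and 8.54, 9.26 and 8.99 at p23. GFP- arrays read higher still, at 10.92, 10.72 and 10.92. Its rise over the whole span was 3.24 ± 0.30 (adjusted p = 9.51e-07), and in Sox9-GFP+ against GFP- cells the difference was -1.93 ± 0.30 (adjusted p = 0.000143).

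Dact1, which binds Dishevelled, fell at both steps, from 10.12, 9.95 and 9.93 at e10.5 over 9.11, 9.14 and 8.75 at e15.5 to 7.28, 7.69 and 7.61 at p23 (whole span -2.48 ± 0.25, adjusted p = 2.13e-06). The co-repressor Tle4 dipped to a mean of 6.64 at e15.5, from 7.75 at e10.5, and read 8.54 at p23. Celsr3, a polarity cadherin, fell by 2.10 ± 0.21 from e15.5 to p23 (adjusted p = 3.64e-06) and was 0.75 ± 0.21 higher in Ngn3-GFP+ cells (adjusted p = 0.0153). Between the p23 sorts, Pygo1, a nuclear partner of beta-catenin, was 2.43 ± 0.42 higher in Sox9-GFP+ cells (adjusted p = 0.000355), and Daam1, a formin of the polarity arm, 2.33 ± 0.16 higher (adjusted p = 4.24e-08).

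Of 17 tested beta-catenin target genes, 3 were higher and 2 lower at e15.5 than at e10.5, 7 and 2 at p23 than at e15.5, 3 and 0 at p23 than at e10.5, 3 and 4 in Ngn3-GFP+ cells, and 7 and 2 in Sox9-GFP+ against GFP- cells at p23. The shares called, 29.4, 52.9, 17.6, 41.2 and 52.9%, stood beside those of all genes (28.2, 57.5, 41.0, 41.7 and 36.0%), higher between the p23 sorts and lower from e10.5 to p23, with no test made. Axin2, Nkd1, Lgr5, Znrf3, Rnf43, Lef1, Dkk1 and Wif1 are also among the Wnt genes above, so these counts are not separate from theirs. Between the p23 sorts the calls include Lef1 and also Axin2, Znrf3 and Rnf43, whose calls were not kept. Tnfrsf19 (Troy), a receptor of stem cells, read 7.23, 7.28 and 7.12 at e10.5, 8.09, 8.42 and 8.61 at e15.5 and 9.89, 9.81 and 10.05 at p23, and the ages did not overlap (whole span 2.71 ± 0.29, adjusted p = 4.15e-06). In GFP- cells it read 7.78, 7.31 and 7.33. Cd44, an adhesion receptor also carried by leukocytes, rose by 3.04 ± 0.16 from e15.5 to p23 (adjusted p = 6.18e-09).

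Ccnd1 (cyclin D1) and Myc, which drive cell division, were lower in Ngn3-GFP+ than in Sox9-GFP+ cells at e15.5. Ccnd1 read 10.24, 8.08 and 9.93 against 11.33, 11.22 and 11.20 (-1.84 ± 0.39, adjusted p = 0.00433), and Myc 7.94, 7.44 and 8.94 against 10.10, 9.65 and 9.79 (-1.74 ± 0.29, adjusted p = 0.00105). All 11 cell cycle genes tested were lower in Ngn3-GFP+ cells as well, and the part of that in these values was not tested. At p23 the pair parted: Ccnd1 was 2.89 ± 0.39 higher in Sox9-GFP+ than in GFP- cells (adjusted p = 3.57e-05), and Myc differed by -1.54 ± 0.29 (adjusted p = 0.000597). Myc is also a quick-response gene, and of 12 immediate early genes 11 were higher at e15.5 than at e10.5 and 12 at p23 than at e15.5, while 8 were lower in Ngn3-GFP+ cells and 7 were higher in Sox9-GFP+ than in GFP- cells at p23.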

How the data were processed

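Several pooled pancreata gave each sort, and RNA was amplified before hybridisation to Affymetrix mouse gene arrays, per the labels' protocols. The authors deposited linear intensity values per probe set, and the submitters' processing notes name PLIER and Affymetrix Expression Console 1.1. Any normalization between arrays at that step is unstated in the sources used here. Of 35557 probe sets, 21789 name 1 gene, 1621 several and 12147 none by the platform annotation, which can be old.

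The deposited intensities were turned to log2(intensity + 16). Genes above 97.8 (the 30th percentile) in at least 3 arrays were kept. The fit was limma 3.58.1 in R 4.3.3, with 1 mean per group, checked on simulated data. Cross-response between probe sets of related Wnt or Frizzled genes was not tested.

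The genes, the lists (other pathway genes, target genes, leukocyte, endothelial, mesenchyme, neural crest and glia, acinar, endocrine and ductal markers, cell cycle and immediate early genes) and the tests were chosen with earlier results of these data known. Values in all 15 arrays are given for members called with a difference of at least 1, groups that do not overlap and a higher mean above 7.67, and for some others where a family is compared. From the 2 wider lists, up to 3 called genes per comparison were eligible. As alternatives, the offset was 1 or 64, arrays were quantile normalized or centred on their medians, the filter was dropped or set at the median, a gene's probe sets were averaged, 2 groups were fitted alone, the replicate number entered as a block, and single arrays were left out. Fits without arrays with Hbb-y, or p23 Sox9-GFP+ arrays with Ptprc, above 9 were added after seeing the data. Such fits left a lone e10.5 array or a lone p23 Sox9-GFP+ array. A call lost there cannot be told apart from the effect of fewer arrays.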

Additional observations from a re-analysis of the deposited data

How the results depend on the processing

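Of the 110 calls of single Wnt genes, 46 held under every alternative run, 64 were lost under at least 1, and 0 reversed. Those kept were 4 of 16 from e10.5 to e15.5, 16 of 27 from e15.5 to p23, 8 of 21 from e10.5 to p23, 1 of 18 between the e15.5 sorts and 17 of 28 between the p23 sorts. Of 82 alternative counts of called Wnt genes, 64 stayed within 1.5 times the reported one. From e10.5 to e15.5 the 16 calls became 9 after median centring, 10 with the filter at the median and 25 with the 2 groups alone. Calls over all genes went from 4754 to 3763, 3291 and 7149. From e15.5 to p23 the 27 became 17 with the filter at the median (all genes 9714 to 7529). Between the e15.5 sorts the 18 became 8 after quantile normalization, 10 with the filter at the median and 9 without the Hbb-y array. Calls over all genes went from 7034 to 4072, 4878 and 4794. Fits that left a lone array also gave fewer calls. These were the fits without the Hbb-y arrays from e10.5 to e15.5 or p23. So were those without the Ptprc arrays from e10.5 to p23 and between the p23 sorts. The filter at the median and the groups alone tested fewer genes or used fewer arrays; otherwise the cause was not tested.

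Leaving out 1 array at a time gave 7 to 17 calls from e10.5 to e15.5, 21 to 24 from e15.5 to p23, 12 to 17 from e10.5 to p23, 8 to 20 between the e15.5 sorts and 22 to 28 between the p23 sorts. Calls over all genes were then 1840 to 5952, 7512 to 9911, 5786 to 6741, 3757 to 6839 and 5055 to 5741 in the same order. With all arrays they were 4754, 9714, 6916, 7034 and 6077. The counts moved by over 1.5 times from e10.5 to e15.5 without e10.5 replicate 2 (8) or 3 (9) or without Sox9-GFP+ e15.5 replicate 2 (7) or 3 (8), from e10.5 to p23 without e10.5 replicate 2 (12), and between the e15.5 sorts without Sox9-GFP+ replicate 2 (11) or 3 (8).

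The replicate number as a block gave 14, 26, 16, 13 and 26 calls in the 5 comparisons in that order, none moved by over 1.5 times. Calls over all genes were then 3695, 9124, 6505, 6246 and 5737. Same-numbered arrays did not deviate together throughout (correlations from -0.49 to 0.20), so the numbers were not taken to pair samples. From e15.5 to p23 every array correlated best with its own number (0.16, 0.03 and 0.20), a hint from the data and not from the design. With median centring the median over all genes tested went from -0.05 to 0.11, from 0.05 to -0.11 and from 0.04 to -0.14 in the e10.5 to e15.5, e15.5 to p23 and e15.5 sort comparisons.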

Other observations

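Of the 7 neural crest and glia markers tested, 1 was higher and 3 were lower at p23 than at e15.5 in Sox9-GFP+ cells. Their summed intensity was 4443 to 4994 in Sox9-GFP+ and 4492 to 5853 in Ngn3-GFP+ arrays at e15.5, 2595 to 2790 at e10.5 and 1382 to 1495 in Sox9-GFP+ cells at p23. Wls, the carrier that brings Wnt proteins to the cell surface, averaged 9.12, 9.79 and 9.86 in Sox9-GFP+ cells from e10.5 to p23 and 8.89 in GFP- cells; it was chosen after its values were seen. Its difference between the p23 sorts was 0.97 ± 0.25 (limma adjusted p = 0.00627), beside 0.46 ± 0.12 for Porcn (adjusted p = 0.00724).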
